A study of Homo sapiens with 6 samples.

Results

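The 10 genes described here belong to bone morphogenetic protein (BMP) signalling and its best known targets, the ID genes. They were chosen by name from the 58735 genes of the deposited count table: the ligands BMP2 and BMP4, the secreted antagonist GREM1, the receptors BMPR1A and BMPR2, the inhibitory SMAD6, and the targets ID1, ID2, ID3 and ID4. RNA sequencing was done on MDA-MB-231, a widely used human breast cancer line of the triple-negative kind, which carries neither hormone receptor nor amplified HER2. By its title the study is about PM2.5 (fine airborne particles) and malignant progression of this subtype. Of 6 libraries, 3 were labelled Control and 3 were labelled PM2.5, and RNA of the exposed cells was taken after 48 h. The sources used here give neither the particle dose nor what the Control cells received.

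BMP ligands are secreted dimers that bring together type I receptors such as BMPR1A and type II receptors such as BMPR2. The active receptor complex phosphorylates SMAD1, SMAD5 and SMAD9, which enter the nucleus with SMAD4 and switch on the ID genes. ID proteins are helix-loop-helix proteins that lack a DNA-binding region, pair with E proteins and keep them from DNA. Antagonists such as GREM1 trap the ligands outside the cell, and SMAD6 damps the signal inside it. In breast cancer, ID1 and ID3 have been studied for roles in tumour growth and lung colonisation.

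Of the 10 genes 9 had enough counts to be tested, and 1 of these 9 (11.1%), ID3, differed between the groups, as it did in each of 15 alternative settings. ID3 fell by 26.4% in the libraries labelled PM2.5, while ID1, the most abundant of the 10 genes per length, had nearly equal means in both groups. GREM1 was too low for the test and was called only with the filter on low counts removed, with 20 reads over the Control libraries and 0 over the PM2.5 libraries. By comparison, 31.9% of all 14975 genes tested were called in either direction and 15.8% were called lower. Elsewhere in the pathway some called changes were larger than that of ID3. The ligand BMP6, the co-receptor ENG and the antagonists FST and CRIM1 rose at least 2.14-fold in the libraries labelled PM2.5. The antagonist CHRDL2, at a low level, fell (log2 change -1.82), a call lost in 6 of 14 alternatives. None of the 4 SMAD transducers was called.

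Total counts ran from 31846136 to 34691009 per library, and levels are given as CPM, counts per 1000000 counts of the library, scaled by TMM factors. Control replicate 3 stood apart from the other Control libraries on the second principal component (-36.9 against 16.5 and 14.8). Haem oxygenase HMOX1 and the cytochrome CYP1A1, which particles are known to induce, had lower levels in the PM2.5 libraries (from 812 ± 58.2 in Control to 51.3 ± 6.0 CPM, and from 6.28 ± 1.73 to 2.73 ± 0.649 CPM, SD, n = 3 each), so every direction is given for the libraries as labelled. Of 6 genes listed as absent or low in the cell line, ESR1 had 0 counts in all 6 libraries. The list summed to 5.61 to 7.15 CPM in the Control and 4.10 to 4.78 CPM in the PM2.5 libraries. Most of that was GATA3, with means of 5.85 and 4.03 CPM. Another 6 genes typical of MDA-MB-231 (VIM, CD44, KRT8, KRT18, FN1 and AXL) summed to 7392 to 7873 and 11649 to 12519 CPM. Among these FN1 had means of 2679 and 6163 CPM, KRT8 and KRT18 also rose, and VIM, CD44 and AXL were not called. The labels call the 3 libraries of a group biological replicates but do not describe separate cultures. The p-values therefore set each group difference against the spread between these libraries, which may be technical.

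The 4 ID genes are paralogs, so their sequences are shown for how far reads of one could be counted for another. Their coding sequences were 68.3% to 72.8% identical over the aligned bases, and the longest run shared by any pair was 21 bases, between ID1 and ID2. The in-frame stretch of 90 coding bases in which the other 3 genes are most like ID1 is printed for all 4, with capitals for the 53 bases that are the same in every gene. The sequences are from GENCODE release 29 transcripts (GRCh38), read 5′ to 3′ on the coding strand. They lie at chr20:31605616-31605705 (plus strand, exon 1 of 2) for ID1, chr2:8682304-8682393 (plus strand, exon 3 of 5) for ID2, chr1:23559184-23559273 (minus strand, exon 1 of 3) for ID3 and chr6:19837980-19838069 (plus strand, exon 1 of 3) for ID4.
ID1: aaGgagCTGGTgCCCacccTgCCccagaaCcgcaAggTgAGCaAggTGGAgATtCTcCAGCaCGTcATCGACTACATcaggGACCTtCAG
ID2: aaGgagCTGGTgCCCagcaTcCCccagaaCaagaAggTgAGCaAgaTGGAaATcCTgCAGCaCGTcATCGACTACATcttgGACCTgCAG
ID3: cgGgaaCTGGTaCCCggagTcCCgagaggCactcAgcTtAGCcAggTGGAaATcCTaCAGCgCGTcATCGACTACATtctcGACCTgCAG
ID4: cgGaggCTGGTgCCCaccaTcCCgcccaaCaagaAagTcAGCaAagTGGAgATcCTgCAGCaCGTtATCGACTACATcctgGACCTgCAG
ID2 matched ID1 at 77 of these 90 bases, ID4 at 69 and ID3 at 59. Over whole transcripts, cut into windows of 50 bases, 0 of 1230 windows of ID1, 0 of 1745 of ID3 and 0 of 2295 of ID4 occurred in a transcript of another gene, against 14 of 2150 of ID2. BMP2, BMP4 and SMAD6 also shared 0 windows. GREM1 shared 146 of 14648 windows, 139 of them with AC090877.2, and BMPR2 shared 73 of 11947. BMPR1A shared the most, 12.4% of its windows, more of them with its pseudogene BMPR1AP1 than with any other gene, so that its level is less certain.

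Neither ligand passed the test. BMP4 (ENSG00000125378, chr14:53949736-53958761, minus strand) had 41.7, 40.9 and 46.0 CPM in Control replicates 1 to 3 and 43.1, 38.4 and 42.6 CPM in PM2.5 replicates 1 to 3. The groups overlap, and the log2 change was -0.05 ± 0.10 (SE, n = 3 each, adjusted p = 0.728; every adjusted p is a Benjamini-Hochberg value from edgeR's quasi-likelihood fit unless another tool is named), with a 95% interval from 0.831-fold to 1.12-fold. In bulk RNA, fewer expressing cells and less RNA per cell cannot be told apart. BMP2 (ENSG00000125845, chr20:6767664-6780280, plus strand) had 14.1, 13.8 and 14.9 CPM in the Control libraries and 13.1, 13.0 and 13.3 CPM in the PM2.5 libraries. All 3 PM2.5 libraries lay below all 3 Control libraries, a separation seen for 44.3% of all genes tested, but the gap was small and did not pass the test (log2 change -0.12 ± 0.13, adjusted p = 0.50). Its interval reached from 0.765-fold to 1.11-fold.

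GREM1, gremlin, is a secreted protein that binds BMP2 and BMP4 and keeps them from their receptors. The gene (ENSG00000166923) is at chr15:32717974-32745107, plus strand. The Control libraries held 4, 4 and 12 reads and the PM2.5 libraries 0, 0 and 0. The highest count was in Control replicate 3, and the groups do not overlap. Pooled over the group, the Control level was 0.204 CPM (95% exact Poisson interval 0.125 to 0.315, counting error only), while 0 reads in the PM2.5 group allow a level of up to 0.0296 CPM (3 reads over the group). The pooled Control level was 6.90-fold that limit, or 4.14-fold with the 8 reads left without Control replicate 3. Neither ratio allows for counting error in the Control level. With the lower end of the Control interval in place of the pooled level, the ratio is 4.21-fold, which allows for counting error only. With the filter on low counts removed it was called (adjusted p = 0.0172 in edgeR), while DESeq2 gave no adjusted p for it.

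Both receptors overlapped between the groups. The type II receptor BMPR2 (ENSG00000204217, chr2:202376936-202567751, plus strand) had 25.9, 25.6 and 29.6 CPM in the Control libraries and 27.8, 34.6 and 28.0 CPM in the PM2.5 libraries. Only PM2.5 replicate 2 lay above every Control library, and the log2 change of 0.16 ± 0.12 did not pass the test (adjusted p = 0.348, interval 0.935-fold to 1.33-fold). The type I receptor BMPR1A (ENSG00000107779, chr10:86756601-86932838, plus strand) had 23.5, 28.8 and 30.5 CPM against 26.3, 30.7 and 24.9 CPM (log2 change -0.02 ± 0.13, adjusted p = 0.930, interval 0.822-fold to 1.19-fold). With GC content and length trends removed, the log2 change of BMPR2 was -0.067, so no direction is read from either receptor.

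SMAD6 inhibits the receptor-regulated SMADs and is itself switched on by BMP signals. The gene (ENSG00000137834) is at chr15:66702228-66782848, plus strand. The Control libraries had 6.86, 4.84 and 6.26 CPM and the PM2.5 libraries 6.88, 6.78 and 6.93 CPM. The PM2.5 libraries lay close together at the upper end of the Control range, and the log2 change of 0.20 ± 0.17 did not pass the test (adjusted p = 0.416, interval 0.889-fold to 1.48-fold).

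**Figure D1:**
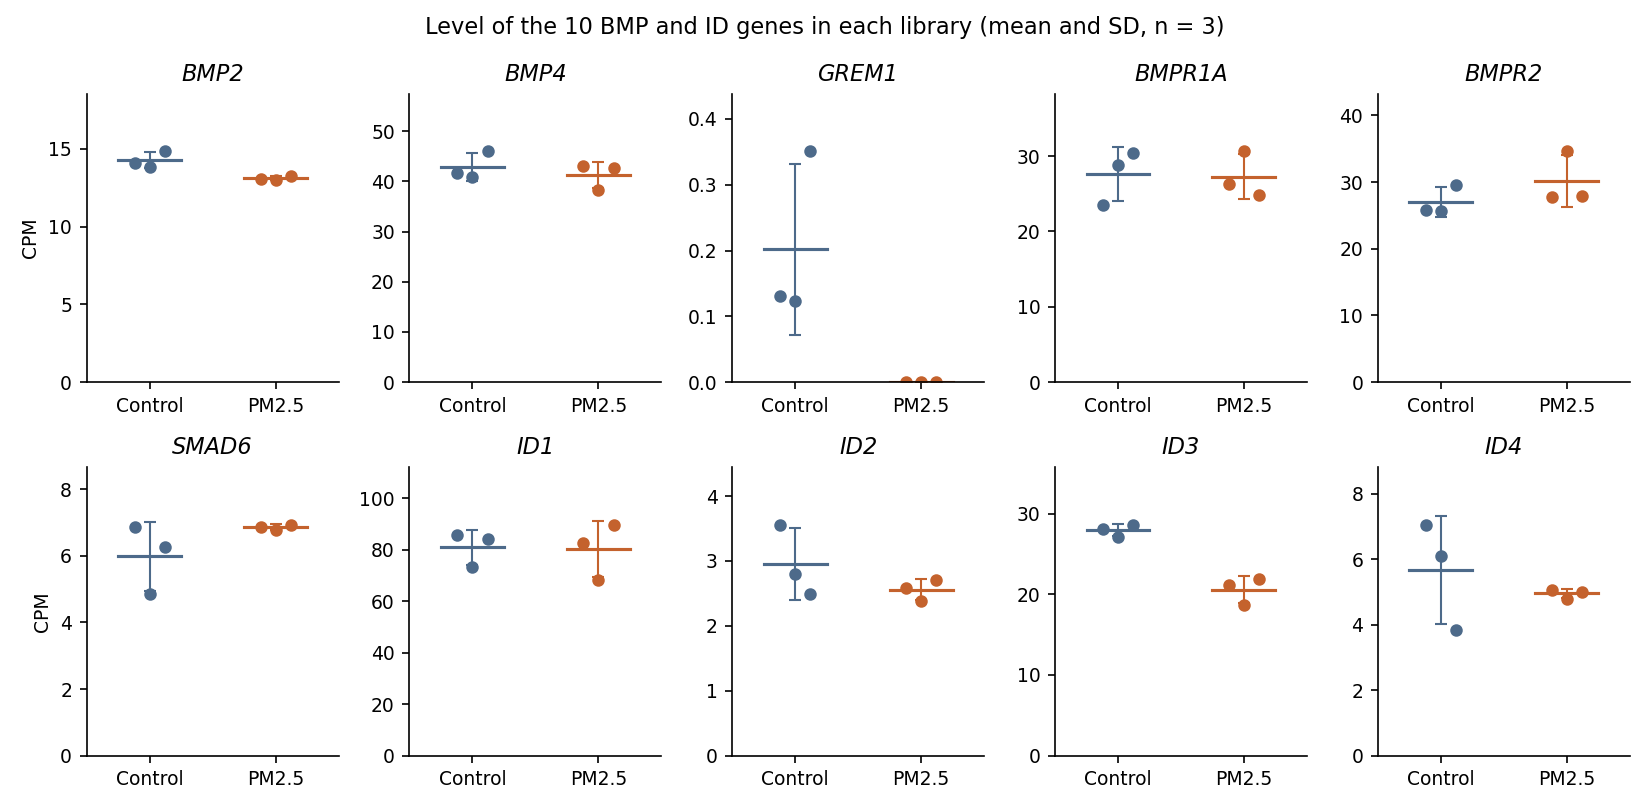
Level of each of the 10 genes in CPM (vertical axes from 0, scaled separately) in the 3 Control and 3 PM2.5 libraries; points are libraries, horizontal bars the mean and vertical bars the SD (n = 3). ID3 and GREM1 separate the groups, BMP2 does so by a narrow margin, and the other genes overlap.

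Among the targets, ID1 stood out by its level and ID3 by its change. ID1 (ENSG00000125968, chr20:31605283-31606515, plus strand) had 85.7, 73.2 and 84.1 CPM in the Control libraries and 82.8, 68.3 and 89.7 CPM in the PM2.5 libraries. The PM2.5 libraries spanned both sides of the Control range. The log2 change was -0.01 ± 0.11 (SE, n = 3 each, adjusted p = 0.943 in edgeR), with an interval from 0.843-fold to 1.17-fold, so that a change as large as the fall of ID3 lies outside it.

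ID3 (ENSG00000117318, chr1:23557918-23559794, minus strand) had 28.1, 27.2 and 28.6 CPM in the Control libraries and 21.2, 18.7 and 21.9 CPM in the PM2.5 libraries. Every PM2.5 library lay below every Control library. ID3 fell by 0.44 ± 0.11 on the log2 scale, a 1.36-fold fall from 28.0 ± 0.741 to 20.6 ± 1.7 CPM (mean ± SD of 3 libraries each; edgeR's adjusted p = 0.00697). The adjusted p stayed between 0.00295 and 0.0366 over the 15 alternatives, and the log2 change between -0.49 and -0.30. The smallest fall, -0.30, came with GC content and length trends removed (adjusted p = 0.0198 in edgeR).

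ID2 and ID4 were low and did not pass the test. ID2 (ENSG00000115738, chr2:8678845-8684453, plus strand) had 3.56, 2.81 and 2.49 CPM in the Control libraries and 2.59, 2.38 and 2.71 CPM in the PM2.5 libraries (log2 change -0.20 ± 0.23, adjusted p = 0.541, interval 0.619-fold to 1.22-fold). ID4 (ENSG00000172201, chr6:19837386-19840684, plus strand) had 7.05, 6.11 and 3.83 CPM against 5.07, 4.79 and 5.01 CPM (log2 change -0.19 ± 0.21, adjusted p = 0.531, interval 0.642-fold to 1.2-fold). Its lowest value was in Control replicate 3, the library that stands apart. Without that library the log2 change of ID4 was -0.41 (adjusted p = 0.0774 in edgeR). For both genes the interval includes a fall as large as that of ID3.

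The ratio of ID3 to ID1 reads within a library needs no scaling between libraries. It was 0.328, 0.371 and 0.341 in the Control libraries and 0.256, 0.273 and 0.244 in the PM2.5 libraries. Each PM2.5 ratio lay below each Control ratio, with a mean of 0.258 ± 0.0147 against 0.347 ± 0.0222 (SD, n = 3 each; two-sided exact permutation p = 0.1, the smallest that 3 against 3 libraries allow, and 0.3 adjusted over 3 such ratios). The ratios of ID3 to ID2 (exact permutation p = 0.3, adjusted 0.4) and of ID3 to ID4 (exact permutation p = 0.4, adjusted 0.4) overlapped between the groups.

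Divided by the length of all annotated exons, ID1 held 65.7 ± 5.52 CPM per kb in the Control libraries and 65.1 ± 8.87 in the PM2.5 libraries (SD, n = 3 each). ID3 followed at 15.6 ± 0.412 and 11.5 ± 0.947, ID4 at 2.42 ± 0.706 and 2.11 ± 0.0618, and ID2 at 1.34 ± 0.250 and 1.16 ± 0.0754 CPM per kb. Of the summed level of the 4 genes per length, ID1 made up 77.2% ± 1.37 in the Control libraries and 81.5% ± 1.01 in the PM2.5 libraries, and ID3 18.3% ± 0.936 and 14.4% ± 0.643. These shares separate the groups in every library: those of ID1 ran from 75.8% to 78.5% and from 80.4% to 82.4%. Shares of a common sum depend on each other, and the level of ID1 itself overlapped between the groups. Its larger share is therefore not a result separate from the lower level of ID3.

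**Figure D2:**
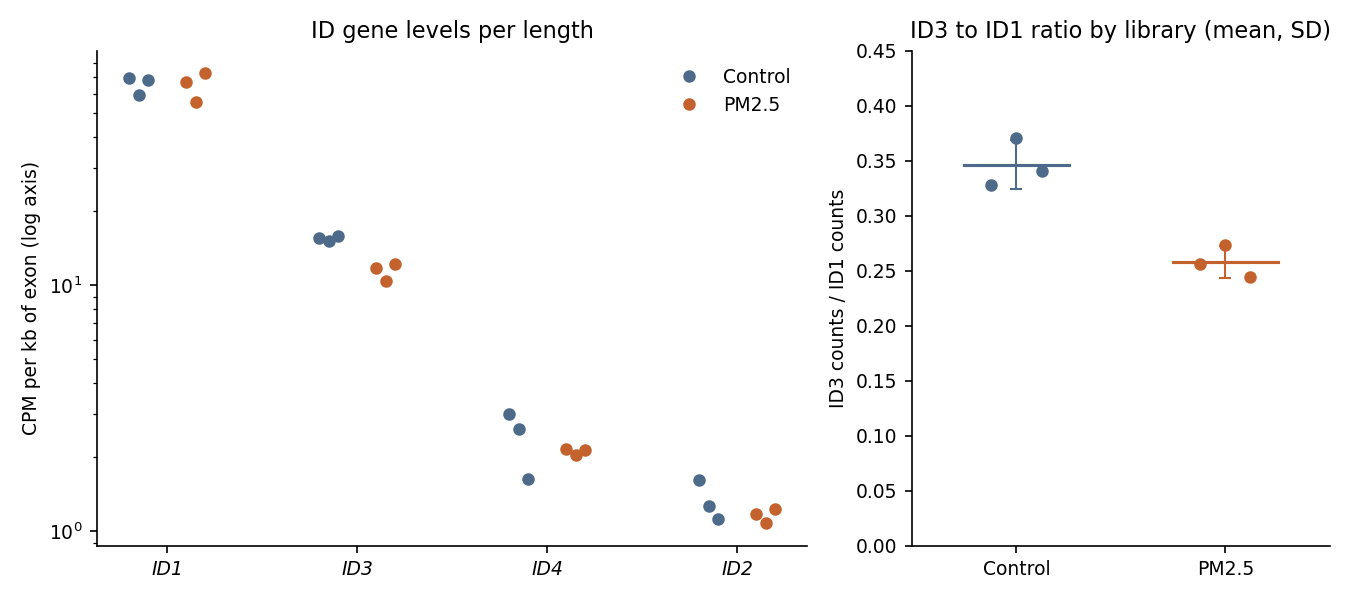
Left, level of the 4 ID genes in CPM per kb of exon (log axis) in each Control and PM2.5 library; right, ratio of ID3 to ID1 counts in each library with mean and SD (n = 3, axis from 0). ID1 is the highest in every library, and the ID3 to ID1 ratio lies between 0.244 and 0.273 in the PM2.5 libraries and between 0.328 and 0.371 in the Control libraries.

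On the same scale per length the order of the 10 genes in the Control libraries was ID1, ID3, BMP4, BMP2, BMPR1A, ID4, BMPR2, ID2, SMAD6 and GREM1. BMPR1A overlapped ID4, and ID4 overlapped BMPR2 (2.42, 2.42 and 2.27 CPM per kb), while the other neighbours in this order did not overlap. In the PM2.5 libraries BMP4 came second and ID3 came next, and BMPR2 and BMPR1A (2.53 and 2.39 CPM per kb) were the neighbours that overlapped. BMP4 had 13.9 ± 0.884 CPM per kb against 15.6 for ID3 in the Control libraries, and 13.4 ± 0.841 against 11.5 in the PM2.5 libraries. The length counts the exons of all annotated isoforms.

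The genes nearest to each ID gene in pattern were found by the root mean square distance of mean-centred log2 CPM over the 6 libraries, among 10902 protein-coding genes. ID3 was followed most closely by DCTN1 (distance 0.0129), ZNF646 (0.0248) and WWP2 (0.0295), which fell by 0.44, 0.46 and 0.45 on the log2 scale. Nearest to ID1 were MARCH9 (0.0405), TMEM179B (0.0432) and FGFRL1 (0.0467), and nearest to ID2 were CSNK2B (0.0425), BABAM1 (0.0478) and SERF2 (0.0480). For ID4 the nearest genes were farther off, at 0.0848 for MRPL55, 0.0881 for AC010616.1 and 0.0914 for CCDC107. Among the 9 tested genes of the set themselves, the closest pair was BMP2 and BMP4, at 0.0617.

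The 9 tested genes lay near the middle of the distribution of all genes. Their median log2 change was -0.05, against -0.01 over all 14975 genes tested. Of the 9 genes 2, ID3 and BMP2, did not overlap between the groups, against 44.3% of all genes tested.

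**Figure D3:**
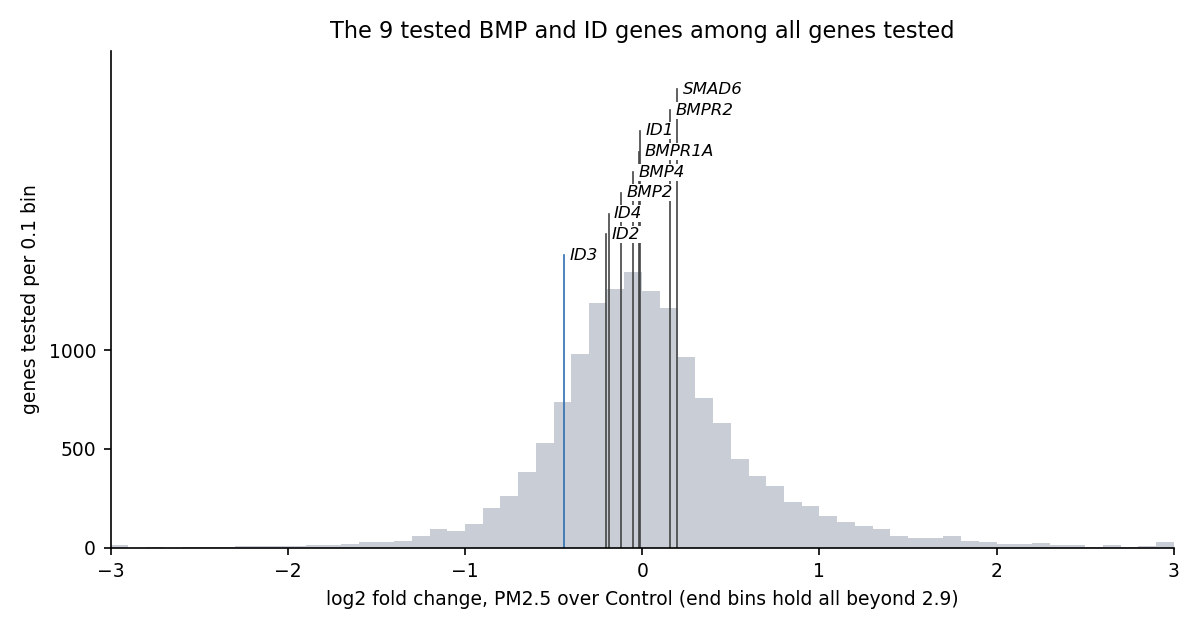
Number of genes tested (bars, per bin of 0.1) by log2 fold change, PM2.5 over Control, for all 14975 genes, with lines at the 9 tested genes of the set (blue for the called gene ID3, dark grey for the genes not called). The lines lie between -0.44 for ID3 and 0.20 for SMAD6.

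The rest of the pathway was read from 6 textbook lists of ligands, receptors, antagonists, transducers, inhibitors and targets. They hold 77 genes with the set included, of which 52 were tested, 16 rose and 6 fell. Without the 10 genes of the set, 43 were tested, 16 rose and 5 fell, and the median log2 change was 0.22. That is 48.8% called, against 31.9% of all genes tested. Because the lists were chosen with earlier results of these data known, this share was not read as a result about the pathway. Of the 77 genes with the set included, the 6 falls became 2 without Control replicate 2 or without PM2.5 replicate 1, and became 3 without Control replicate 1 or without PM2.5 replicate 2.

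Of 14 ligands 4 were tested and 1 was called (25%, against 31.9% of all genes tested). BMP6, a ligand best known from iron regulation in the liver, had 2.58, 3.15 and 3.22 CPM in the Control libraries and 10.4, 10.2 and 9.67 CPM in the PM2.5 libraries. The groups lie far apart, with a 3.38-fold rise (log2 change 1.76 ± 0.17, adjusted p = 1.19e-06 in edgeR). Per length, BMP6 reached 3.63 CPM per kb in the PM2.5 libraries, a level like that of BMP2 at 3.64, from 1.07 against 3.96 in the Control libraries.

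Of 12 receptors and co-receptors 10 were tested, 4 rose and the other 6 did not pass the test, with a median log2 change of 0.31. Over all genes tested 16.1% were called higher and 31.9% were called in either direction. Endoglin (ENG), a co-receptor best known from blood vessels, had 10.2, 11.9 and 15.6 CPM in the Control libraries and 29, 27.7 and 37.0 CPM in the PM2.5 libraries, a 2.49-fold rise (adjusted p = 1.20e-05). Exons of another gene, AL162586.1, cover 7.95% of the exonic bases of ENG. ACVRL1, the type I receptor for which endoglin is a partner, rose 1.91-fold from 5.38 ± 2.07 to 10.3 ± 1.30 CPM (mean ± SD of 3 libraries each; edgeR's adjusted p = 0.00395). The type II receptor ACVR2B rose 1.69-fold from 21.0 ± 1.37 to 35.5 ± 6.20 CPM (adjusted p = 0.000355). The co-receptor RGMB rose 1.56-fold from 67.5 ± 3.56 to 105 ± 2.92 CPM (adjusted p = 6.28e-05), but exons of its antisense RNA and another gene cover 45.6% of its exonic bases, and without a stated strand setting their reads cannot be told apart.

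Since ENG and ACVRL1 are abundant in vessel cells, markers of other cell types were read beside them. Of 6 endothelial markers CDH5, TEK and CLDN5 were at or near 0, none above 0.117 CPM in any library. The list summed to 39.8 to 52.6 CPM in the Control libraries and 54.3 to 58.8 CPM in the PM2.5 libraries, nearly all of it PECAM1, and 1 of 3 tested members rose. Of the leukocyte markers PTPRC and CD3E had 0 counts in all libraries. The leukocyte list summed to 1.78 to 2.91 CPM in the Control libraries and 4.84 to 6.88 CPM in the PM2.5 libraries, and all 3 tested members rose. The 7 fibroblast markers summed to 24.8 to 31.0 and 27.5 to 31.1 CPM, with DCN and LUM at 0 counts throughout and 1 of 3 tested members higher. The part of these genes in the results was not tested.

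Of 20 extracellular antagonists and modulators 12 were tested, 7 rose and 2 fell, with a median log2 change of 0.34. Over all genes tested 16.1% were called higher and 15.8% lower. CRIM1, a membrane protein that binds BMPs, had 88.3, 87.0 and 99.4 CPM in the Control libraries and 197, 197 and 195 CPM in the PM2.5 libraries, a 2.14-fold rise (adjusted p = 2.05e-07). Follistatin (FST), which binds activins and some BMPs, rose 2.43-fold from 10.7 ± 0.973 to 25.9 ± 2.02 CPM (adjusted p = 1.49e-06). CHRDL1, a chordin-like BMP binder, rose 1.75-fold from 22.3 ± 1.45 to 39.0 ± 2.29 CPM (mean ± SD of 3 libraries each; edgeR's adjusted p = 3.30e-05). TWSG1, which acts with chordin, rose 1.59-fold (adjusted p = 0.000395). The other rises, named after their values were seen, were BMP1, FSTL1 and NBL1. They rose 1.37-fold, 1.31-fold and 1.23-fold (edgeR's adjusted p = 0.00157, 0.00511 and 0.0381) and were not followed over the alternatives. Exons of other genes cover 17.8% of the exonic bases of NBL1. Noggin (NOG), the classic antagonist of BMP2 and BMP4, was the more abundant partner: it had 34.6 CPM per kb in the Control libraries and 40.2 in the PM2.5 libraries, above BMP4 at 13.9 and 13.4. Its log2 change of 0.22 ± 0.11 did not pass the test (adjusted p = 0.128), but it did with GC content and length trends removed and without PM2.5 replicate 2. The falls, chosen after their values were seen, were FSTL3 (log2 change -0.28) and CHRDL2, whose mean was 0.667 CPM in the Control libraries and 0.184 CPM in the PM2.5 libraries. Both calls were lost without Control replicate 1 or 2 or PM2.5 replicate 1 or 2 (adjusted p = 0.177, 0.0843, 0.132 and 0.118 for FSTL3 and 0.149, 0.0609, 0.0719 and 0.131 for CHRDL2 in edgeR). The FSTL3 call was also lost with GC content and length trends removed (adjusted p = 0.0785), and the CHRDL2 call with DESeq2 (adjusted p = 0.0563).

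None of the 4 SMAD transducers was called by edgeR's quasi-likelihood test, nor by DESeq2 or limma-voom, and 1 of them, SMAD5, had an unadjusted p under 0.05 (0.025). SMAD5 was the most abundant of the BMP-regulated SMADs, with 38.6, 45.1 and 46.9 CPM in the Control libraries and 56.2, 63.3 and 43.4 CPM in the PM2.5 libraries. Its PM2.5 replicate 3 lay within the Control range, and the log2 change of 0.32 ± 0.13 had an adjusted p of 0.0693, which passed without that library (adjusted p = 0.00767) and with no filter on low counts (0.0404). Exons of other genes, its antisense RNA among them, cover 6.75% of its exonic bases. SMAD1 at 2.15 ± 0.563 and 1.73 ± 0.386 CPM and SMAD9 at 1.11 ± 0.733 and 1.29 ± 0.449 CPM were low, and the common partner SMAD4 was at 16.1 ± 1.49 and 16.5 ± 1.03 CPM (mean ± SD of 3 libraries each).

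Of 11 inhibitors inside the pathway, all tested, 3 rose and 1 fell, and the share called, 36.4%, is near the 31.9% of all genes tested. The ubiquitin ligase SMURF2, which marks SMADs and receptors for breakdown, rose 1.62-fold from 169 ± 34.6 to 273 ± 36.3 CPM (adjusted p = 0.000822). BAMBI, a decoy receptor that is also a BMP and TGF-beta target, fell by 0.53 ± 0.13 on the log2 scale, with 175, 176 and 118 CPM in the Control libraries and 108, 101 and 114 CPM in the PM2.5 libraries (adjusted p = 0.00521). Control replicate 3 lay nearest to the PM2.5 group. The co-repressors SKI and SKIL rose by 0.30 ± 0.09 and 0.55 ± 0.16 on the log2 scale (adjusted p = 0.0225 and 0.0151), although for SKIL PM2.5 replicate 3 lay within the Control range. The SKI call was lost without Control replicate 1 or 2 or PM2.5 replicate 1 or 3 (adjusted p = 0.11, 0.0777, 0.0792 and 0.0758 in edgeR). The SKIL call was lost without Control replicate 2 or PM2.5 replicate 1 or 2 (0.0562, 0.0541 and 0.0822), and with GC content and length trends removed, where its log2 change was 0.26 (adjusted p = 0.0643). SMAD7, the inhibitor most like SMAD6, had 27.2, 26.3 and 24.7 CPM against 22.4, 23.0 and 21.5 CPM. The groups do not overlap, but its log2 change of -0.22 ± 0.11 did not pass the test (adjusted p = 0.132).

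Of 20 BMP targets 15 were tested, 1 rose and 4 fell, with a median log2 change of -0.20. The share called, 33.3%, is near the 31.9% of all genes tested. HEY1, a transcriptional repressor shared with the Notch pathway, had 2.91, 4.16 and 2.9 CPM in the Control libraries and 8.43, 9.86 and 10.5 CPM in the PM2.5 libraries, a 2.89-fold rise (adjusted p = 1.75e-05). The falls were ID3, BAMBI, the bone transcription factor RUNX2 and, chosen after its values were seen, GATA3 (log2 change -0.53 ± 0.19, adjusted p = 0.0429 in edgeR). The GATA3 call was lost in 11 of the 15 alternatives, with an adjusted p of up to 0.2. RUNX2 fell 1.30-fold from 96.4 ± 9.35 to 74.3 ± 4.89 CPM (mean ± SD of 3 libraries each; edgeR's adjusted p = 0.00941), a call lost without Control replicate 2 (adjusted p = 0.0576) or PM2.5 replicate 1 (adjusted p = 0.0571 in edgeR). ID1, the most abundant ID gene, did not pass the test.

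**Figure D4:**
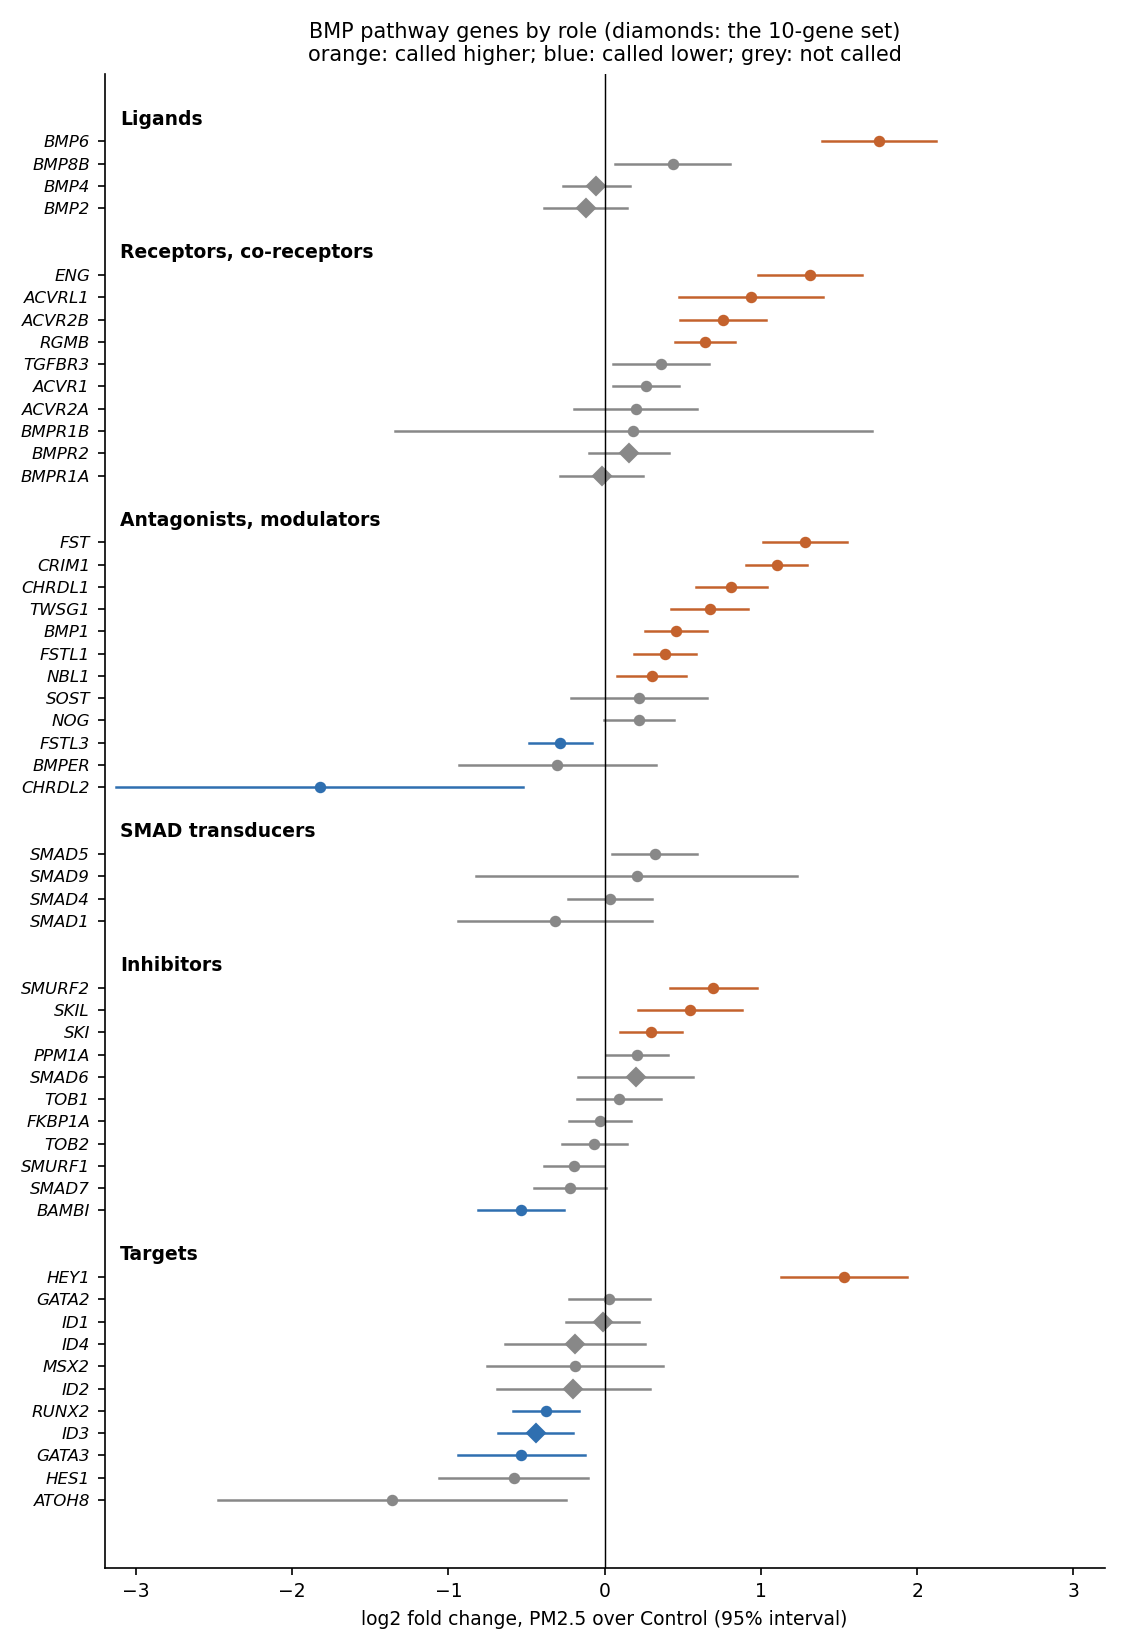
Log2 fold change, PM2.5 over Control, with 95% interval for every tested BMP pathway gene, grouped by role. Diamonds are the 9 tested genes of the 10-gene set, without GREM1, and circles the other genes. Orange marks genes called higher, blue genes called lower and grey genes not called, and a gene of more than 1 list is drawn once. The diamonds gather near 0, while BMP6, HEY1, ENG, FST and CRIM1 lie above 1.

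The E proteins, which the ID proteins bind, were read last. TCF3, the main E protein in these cells, had 119, 114 and 105 CPM in the Control libraries and 117, 110 and 123 CPM in the PM2.5 libraries (log2 change 0.05 ± 0.09, adjusted p = 0.730). TCF12 had 18.4, 19.8 and 21.3 CPM against 22.8, 27.9 and 18.3 CPM (log2 change 0.21 ± 0.14, adjusted p = 0.277). TCF4 was too low to be tested, with at most 0.181 CPM in any library. Per length, TCF3 held 18.5 CPM per kb in the Control libraries and 19.2 in the PM2.5 libraries, and TCF12 2.10 and 2.43. The 4 ID genes summed to 85.0 ± 5.94 and 79.8 ± 9.94 CPM per kb (SD, n = 3 each). These are RNA levels, and the balance of the proteins was not tested.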

How the data were processed

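The deposited table holds raw read counts per gene for 6 libraries of total RNA, whole numbers per the file headers and values. The genome build was GRCh38, per the submitters' processing notes, and all 58735 gene IDs matched GENCODE release 29. For the aligner, the counter and its strand: not given in the sources used here. Groups came from the treatment label. Genes passing edgeR's filterByExpr (minimum count 10, minimum total 15) were scaled by TMM factors and tested with edgeR 4.0.16 (R 4.3.3) by its quasi-likelihood test, PM2.5 over Control, with Benjamini-Hochberg adjustment over all 14975 genes and a threshold of 0.05. The script was tested on simulated data in which 200 of 14975 genes changed, far fewer than were called here. It recovered 47.5% of 1.5-fold, 77% of 2-fold and 95% of 4-fold changes, with 4, 5 and 7 false calls. A gene that did not pass the test may therefore still have changed. Alternatives used DESeq2 1.42.0, limma-voom (limma 3.58.1), other scalings and filters, a replicate block, GC content and length trends, and each library left out. Named were all 10 genes, the SMAD transducers, SMAD7, BAMBI, NOG, FST, the E proteins, up to 4 called genes per list by smallest p, and the 3 nearest profiles of each ID gene (CPM + 0.05, mean of at least 2 CPM). The members and lists were chosen with earlier results of these data known.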

Additional observations from a re-analysis of the deposited data

How the results depend on the processing

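Over 15 alternatives ID3 kept its call, and 1 of the 10 genes was called in each except with no filter on low counts, where GREM1 made it 2. Leaving out 1 library at a time gave 3245 to 5280 genes called (1797 to 2600 higher, 1448 to 2680 lower, the fewest without PM2.5 replicate 1), 15 to 22 pathway genes called (13 to 16 higher, 2 to 7 lower) and 1 to 1 of the 10 genes. Deviations from the group mean correlated at r = -0.122 to -0.00158 in same-numbered libraries and at -0.105 to 0.139 in other pairs. With 3 libraries per group, these values cannot settle whether the numbers pair the samples, and the labels do not say. The main test used no pairing. With the replicate block 3777 genes were called, among them 17 pathway genes (14 higher and 3 lower) and 1 of the 10 genes. Of the called genes followed over the alternatives, SKIL, FSTL3, CHRDL2 and GATA3 were not called with the block (adjusted p = 0.0565, 0.0633, 0.0641 and 0.0901 in edgeR). Signs of some uncalled changes turned. After removal of GC content and length trends, the log2 change was 0.13 for ID1, 0.053 for BMP4, -0.067 for BMPR2 and -0.14 for SMAD4. For ID1 it was 0.0059 with upper-quartile factors and 0.0064 with library totals alone, and for BMPR1A 0.0035 with library totals alone. Without 1 library the log2 change ran from -0.10 to 0.092 for ID1, from -0.12 to 0.056 for BMPR1A, from -0.025 to 0.11 for SMAD4, from -0.26 to 0.52 for SMAD9 and from -0.0051 to 0.092 for TCF3. The cause was not tested. Counts limit GREM1, TCF4 and CHRDL2 most.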
